A study of Mus musculus with 24 samples.

Results

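Cortical RNA of 12 mice that received no lipopolysaccharide (LPS) was compared by genotype label, 6 mice labelled Abca7 against 6 labelled control. These are the libraries with the stimulus label none, 12 of the 24 libraries of the series, with 1 library per mouse. Genes were taken into the comparison where they had at least 10 raw counts in at least 6 of the 12 libraries, which left 21015 of 43346 genes. The design text describes the mice of the study as Abca7 heterozygous or control. It does not say what change the altered allele carries, the strain, the sex, or whether controls were littermates. The mice labelled Abca7 were 55 to 58 days old and the controls 55 to 57 days old, and age did not differ by label beyond the spread between mice (means 56.0 ± 1.26 and 55.8 ± 0.753 days, SD, n = 6; exact permutation p = 1). The other 12 mice, 6 of each label at 54 to 56 days, had been injected with LPS. They are used below as separate animals in which the same difference could be measured again. Nothing in the labels ties a library to a litter, a cage or a preparation day.

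Abca7 encodes a transporter of the ATP-binding cassette A subfamily, which moves phospholipids across membranes and is close in sequence to the cholesterol exporter Abca1. In brain it is expressed in neurons and microglia, and it has been tied to phagocytosis, to lipid handling and to the processing of the amyloid precursor protein. Variants that reduce its function raise the risk of Alzheimer's disease in people.

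The gene that differed most between the labels was the processed pseudogene Gm9855, a copy of the thymine-DNA glycosylase gene Tdg, and Tdg itself was among the 3 genes called. Their sequences are shown first because a read from their shared part can be assigned to either. In the GENCODE M21 transcripts, Gm9855 is 1194 bases long and aligned without a gap to bases 230 to 1423 of a Tdg transcript, the coding sequence less its first bases. Of these 1194 bases 1185 (99.25%) were identical. With positions counted from 1 at the 5′ end of Gm9855, the Tdg base first and the Gm9855 base last, the 9 differences are A98C, A855G, G877A, G879C, T993C, T1056C, G1084A, A1090G and G1101A. Of the 50-base words of Gm9855, 76.5% also occur in this Tdg transcript, and 25.4% of those of the Tdg transcript occur in Gm9855. The stretches that hold most of the differences, positions 841 to 900 (chr10:42054407-42054466, minus strand, mm10, for Gm9855) and 1051 to 1110 (chr10:42054197-42054256), read as follows, with differing bases in capitals.
Tdg, 841 to 900: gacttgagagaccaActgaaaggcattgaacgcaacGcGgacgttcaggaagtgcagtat
Gm9855, 841 to 900: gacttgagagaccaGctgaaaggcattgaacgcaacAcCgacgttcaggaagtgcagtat
Tdg, 1051 to 1110: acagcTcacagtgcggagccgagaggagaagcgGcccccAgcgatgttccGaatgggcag
Gm9855, 1051 to 1110: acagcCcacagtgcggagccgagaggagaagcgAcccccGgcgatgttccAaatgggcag

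Sequencing depth was similar, with 48149131 to 61638125 counts per library in mice labelled Abca7 and 50687017 to 66360911 in controls (exact permutation p = 0.171, n = 6 per label). A pair of loci in the ribosomal RNA repeat took 5.88% to 18.7% and 7.87% to 17.5% of the counts (exact permutation p = 0.985). Neuronal markers were abundant in all 12 libraries, with a summed level of 8630 to 9680 CPM (read counts on a common library scale, with TMM factors) over 15 genes. Control replicate 1 stood apart from the other 5 controls. It had the lowest neuronal sum (8630 CPM against 9390 to 9680), the highest sum of thalamic markers (470 against 251 to 311 CPM) and of choroid plexus markers (624 against 208 to 231 CPM), and the highest level of the olfactory marker Omp (11.4 against 0.634 to 5.49 CPM). Among mice labelled Abca7, replicate 1 had the lowest choroid plexus sum, 246 against 484 to 909 CPM. In bulk tissue, more cells of a type and more RNA per cell cannot be told apart. Replicate numbers only name libraries. The libraries are taken as separate mice because each title carries its own number, and p-values measure the spread between them.

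The level of Abca7 itself (ENSMUSG00000035722, chr10:79996494-80015572, plus strand, protein-coding) gave no sign of a reduction under the Abca7 label. Those 6 libraries had 31.0, 30.7, 29.8, 31.4, 34.5 and 34.5 CPM. The controls had 26.5, 29.8, 26.7, 32.1, 26.9 and 28.8 CPM, so the ranges overlapped, with control replicate 4 above 4 of the 6 labelled mice. Means were 32.0 ± 2.06 against 28.5 ± 2.21 CPM (SD, n = 6), a log2 difference of 0.17 ± 0.06 (SE; edgeR quasi-likelihood test, adjusted p = 0.670 over all genes). An exact permutation test of the single gene gave p = 0.0260, two-sided. The direction was the same at each age with both labels, with means of 32.2 against 27.8 CPM in 3 and 2 mice of 55 days, 29.8 against 27.6 in 1 and 3 mice of 56 days, and 34.5 against 32.1 in 1 and 1 mouse of 57 days. In the LPS mice the log2 difference was 0.26 ± 0.07 (adjusted p = 0.424). Counts over a whole gene do not check the loss of some of its exons on 1 chromosome, so the genotype is given as a label throughout.

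Across the whole table the labels differed little. Of 21015 genes, 3 (0.0143%) passed the threshold of 0.05 on the adjusted p, all on chromosome 10: Gm9855 rose in mice labelled Abca7, and 1190007I07Rik and Tdg fell. The median log2 fold change was 0 and the median absolute log2 fold change 0.06, below the median standard error of 0.08. At an unadjusted p under 0.05 there were 1235 genes (5.88%), of which 700 (3.33%) were higher and 535 (2.55%) lower in mice labelled Abca7. In 55 genes (0.262%) no library of a label overlapped the other label, 32 of them higher and 23 lower. An absolute difference of 2-fold or more was fitted for 84 genes, 52 higher and 32 lower. Without control replicate 1 the count of called genes was 25, and without labelled Abca7 replicate 1 it was 16. Leaving out any other library gave 2.

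**Figure D1:**
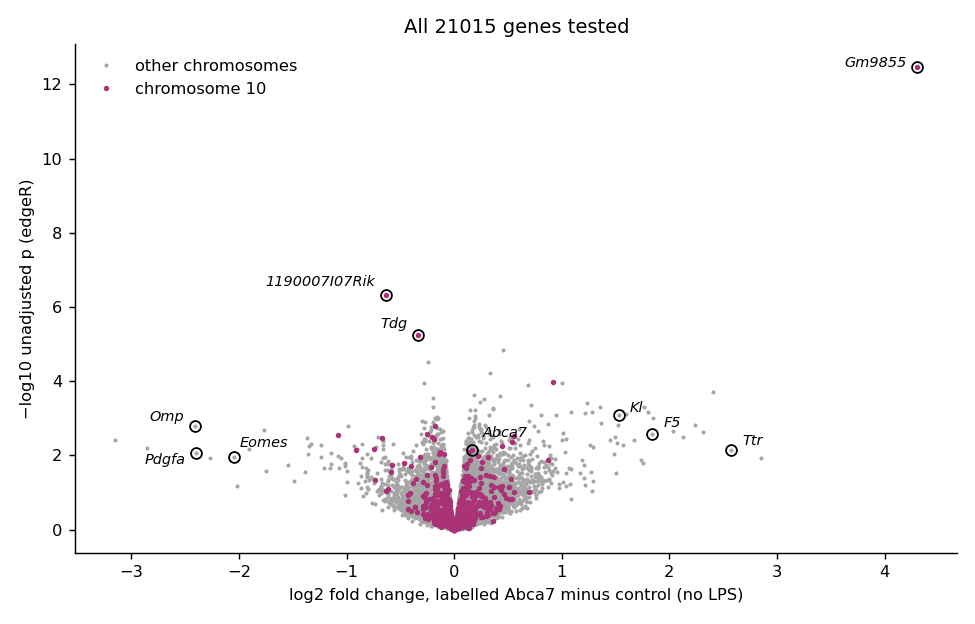
Each point is 1 of the 21015 genes tested without LPS, with the log2 fold change (labelled Abca7 minus control) on the horizontal axis and −log10 of the unadjusted edgeR p on the vertical axis; chromosome 10 genes are coloured. Gm9855, at a log2 fold change of 4.30, lies far above all others, followed by 1190007I07Rik and Tdg; genes with larger fold changes than these last 2, such as Ttr and Omp, have higher p-values.

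Gm9855 (ENSMUSG00000085666, chr10:42054113-42055306, minus strand, 37.9 Mb from Abca7) was near the floor of detection in controls and present in every mouse labelled Abca7. The labelled mice had 94 to 139 counts, or 2.42, 2.28, 1.71, 2.19, 1.69 and 1.88 CPM. Controls had 2 to 8 counts, or 0.121, 0.1, 0.0354, 0.0961, 0.118 and 0.127 CPM. All 6 labelled mice lay above all 6 controls. No control reached the minimum count of the filter, so the gene entered the comparison through the labelled mice alone. For this gene, non-overlap in counts thus restates which 6 libraries reached that minimum. With no filter beyond 1 count the gene was also called (log2 fold change 4.30, edgeR adjusted p = 9.9e-11). The means were 2.03 ± 0.310 and 0.0995 ± 0.0336 CPM, and the log2 fold change was 4.30 ± 0.21 (SE, n = 6 per label; edgeR adjusted p = 7.21e-09). The gene passed the threshold with each of the 12 libraries left out and when age, the level of Ttr or surrogate variables were added as covariates.

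Tdg (ENSMUSG00000034674, chr10:82629828-82650799, plus strand, 2.63 Mb from Abca7) encodes the glycosylase that removes thymine from G-T mismatches and oxidised methylcytosine from DNA. Its level was 24.4, 25.1, 21.9, 23, 24.1 and 24.7 CPM in mice labelled Abca7 and 25.9, 30.8, 30.5, 30.9, 31.6 and 30.4 CPM in controls. The ranges did not overlap, and control replicate 1 was the only control near the labelled mice. Tdg fell by 0.33 on the log2 scale (SE 0.05; adjusted p = 0.0409), from 30.0 ± 2.07 to 23.8 ± 1.19 CPM. The call was lost when any of 10 of the 12 libraries was left out (adjusted p = 0.0728 to 0.179), and was kept without labelled Abca7 replicate 1 (0.0382) or control replicate 1 (0.000795). With Ttr level as a covariate the log2 fold change was -0.18 (adjusted p = 0.290). The 3′ end of Tdg overlaps Glt8d2 on the opposite strand, and the strand setting of the counting is not given in the sources used here; Glt8d2 had 12.8 CPM in mice labelled Abca7 and 12.4 CPM in controls (log2 0.05 ± 0.10).

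Because of the shared sequence, both genes were also treated as a pair. Other genes share it too. Over all transcripts, Tdg shares 41.2% of its 50-base words with other genes, mostly Tdg-ps and Gm9855. Gm9855 shares 85.3%, mostly with Tdg and Gm5597. The counts of both are therefore uncertain, and their sum does not cover every gene that holds the shared sequence. Gm9855 took 6.56% to 9.01% of the counts of the pair in mice labelled Abca7 and 0.116% to 0.464% in controls (exact permutation p = 0.00216, the smallest that 6 against 6 can give). The summed level of the pair was 25.9 ± 1.35 CPM (23.6 to 27.3) against 30.1 ± 2.07 CPM (26.0 to 31.7), a difference of -4.26 CPM (exact permutation p = 0.00866). Both genes were paired after they had been called in these same libraries. The permutation p-values of the share and the sum are therefore no separate test. The difference in Gm9855, 1.93 CPM, was smaller than that in Tdg, -6.18 CPM. With both counts summed into a single gene before the fit, the log2 fold change was -0.22 and did not pass the threshold (adjusted p = 0.514). Whether reads of Tdg were assigned to Gm9855 was not tested, since reads were not used here.

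The third gene, 1190007I07Rik (ENSMUSG00000063320, chr10:82619851-82623228, minus strand, protein-coding, 2.62 Mb from Abca7), is the neighbour of Tdg, and the genes are transcribed away from each other. Its level was 2.99, 2.87, 3.32, 3.20, 3 and 2.53 CPM in mice labelled Abca7 and 4.83, 4.34, 4.73, 4.56, 4.66 and 4.69 CPM in controls. No labelled mouse reached the lowest control. It fell by 0.64 on the log2 scale (SE 0.08; adjusted p = 0.00509), from 4.63 ± 0.166 to 2.99 ± 0.275 CPM. It passed the threshold without any 1 of the 12 libraries (adjusted p = 0.00350 to 0.0280), and in the 3 against 2 mice of 55 days the log2 fold change was -0.70 (adjusted p = 0.104).

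**Figure D2:**
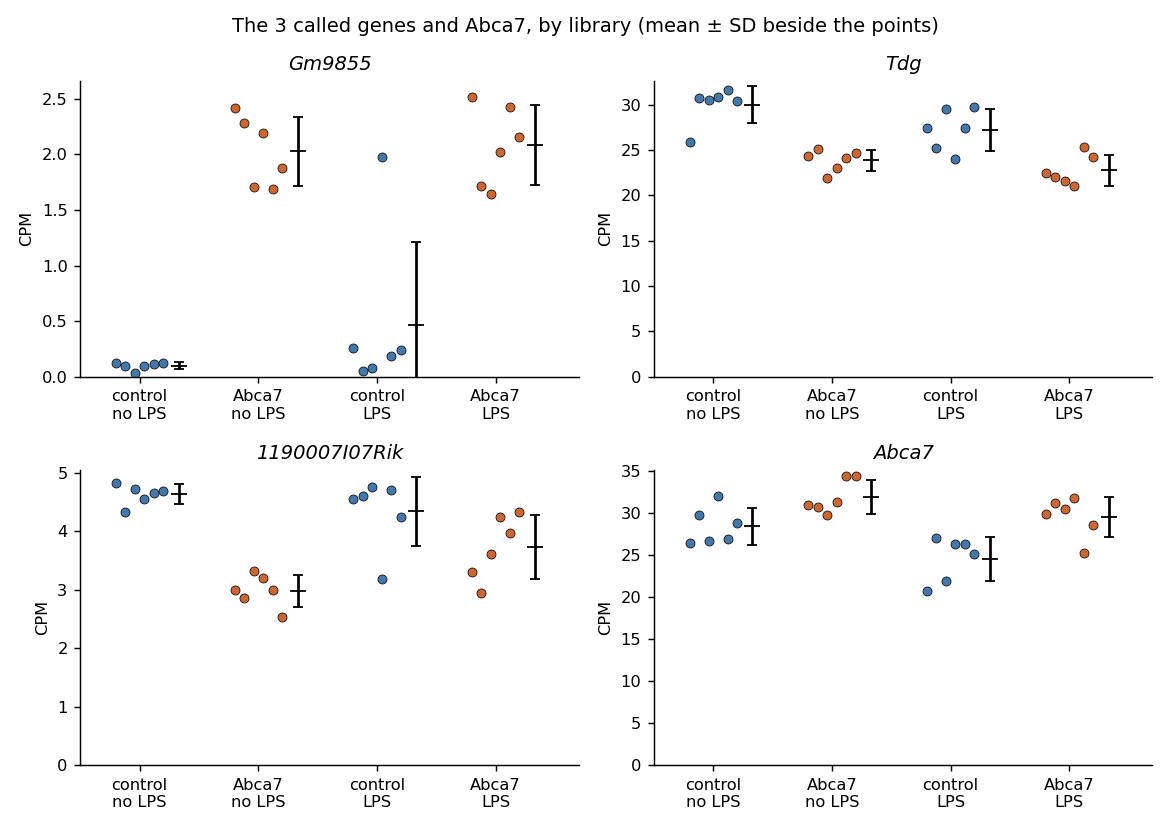
CPM of Gm9855, Tdg, 1190007I07Rik and Abca7 in each of the 24 libraries, by label and LPS, with points for mice and mean ± SD beside them; all vertical axes start at 0. Without LPS the groups are apart for the first 3 genes and overlap for Abca7, and under LPS control replicate 4 lies among the mice labelled Abca7 for Gm9855.

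The promoters of these neighbours are shown because both genes fell together. Each run holds 250 bases before and 50 after the RefSeq start (GRCm38.p6), for 1190007I07Rik chr10:82623179-82623478 on the minus strand and for Tdg chr10:82629588-82629887 on the plus strand, with CCAAT on either strand in capitals.
1190007I07Rik promoter: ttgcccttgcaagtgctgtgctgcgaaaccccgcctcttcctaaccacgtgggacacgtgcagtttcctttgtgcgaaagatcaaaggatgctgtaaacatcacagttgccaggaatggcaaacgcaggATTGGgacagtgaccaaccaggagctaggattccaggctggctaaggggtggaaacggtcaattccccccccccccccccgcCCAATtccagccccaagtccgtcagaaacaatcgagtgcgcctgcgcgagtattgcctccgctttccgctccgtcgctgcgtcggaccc
Tdg promoter: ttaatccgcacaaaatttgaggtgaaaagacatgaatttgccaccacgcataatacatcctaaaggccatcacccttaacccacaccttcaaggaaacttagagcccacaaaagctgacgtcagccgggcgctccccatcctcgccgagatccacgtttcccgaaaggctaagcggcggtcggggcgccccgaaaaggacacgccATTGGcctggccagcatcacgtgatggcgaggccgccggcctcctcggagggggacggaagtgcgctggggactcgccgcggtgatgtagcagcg
CCAAT occurs 2 times in the 1190007I07Rik window and 1 time in the Tdg window, counting both strands, and 37.4% of 32851 mouse promoter windows of this length hold it. GGGCGG occurs 1 time in the former and is not in the latter (35.7% of windows hold it), and TATAAA is in neither (13.6%). GC content was 58.7% and 59.3%, against a median of 52.7% over all windows. These are letter matches only. RefSeq promoters for Gm9855 were not used here.

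The LPS mice gave a separate measurement of the same difference. In them 0 of 21341 genes (0%) passed the threshold (edgeR; smallest adjusted p = 0.304), with 1728 genes at an unadjusted p under 0.05, and DESeq2 called 31. Gm9855 was at 2.52, 1.72, 1.64, 2.02, 2.43 and 2.16 CPM in mice labelled Abca7, while 5 of the 6 controls had 0.0535 to 0.260 CPM. The library labelled control LPS replicate 4 had 1.98 CPM, within the range of the mice labelled Abca7. With it the log2 difference was 2.06 ± 0.56 (adjusted p = 0.431). Without it the difference was 3.68, which describes the other 11 libraries and is no test, since the library was set aside after its Gm9855 level was seen. That library also had the lowest Tdg level of the LPS controls, 24 against 25.2 to 29.8 CPM, and the lowest 1190007I07Rik level, 3.19 against 4.24 to 4.76 CPM. Why it stands apart was not tested.

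Tdg under LPS averaged 22.8 ± 1.70 CPM with the Abca7 label against 27.2 ± 2.29 CPM in their controls, or on the log2 scale -0.26 ± 0.06 (edgeR adjusted p = 0.408; DESeq2 adjusted p = 0.0391), and the ranges overlapped. 1190007I07Rik averaged 3.74 ± 0.552 and 4.34 ± 0.594 CPM, a log2 difference of -0.22 ± 0.12 (adjusted p = 0.644). All 3 genes thus had the same sign in the LPS mice. Among the 40 genes at an unadjusted p under 0.001 without LPS, these 3 included, 23 had the same sign under LPS, 12 of them at an unadjusted p under 0.05 there. Of the 12, 2 were called genes. Over all genes tested under LPS, 1728 of 21341 had an unadjusted p under 0.05, with either sign. The share of all genes with the same sign was not computed, so these counts are not read as a repeat of the difference. The interaction, which tests whether the label difference differed with LPS, called 0 of 22096 genes (0%; edgeR, smallest adjusted p = 1), with 752 genes at an unadjusted p under 0.05. It was -2.24 for Gm9855 (unadjusted p = 0.00667), 0.41 for 1190007I07Rik (0.00643) and 0.07 for Tdg (0.366) on the log2 scale. These values include control LPS replicate 4, which lay outside the other LPS controls at 1.98 CPM of Gm9855 and 3.19 CPM of 1190007I07Rik. The interaction was not fitted without that library. Levels of Abca7, Gm9855, Tdg and 1190007I07Rik in all 24 mice are in the plot by label and LPS.

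Chromosome 10 was looked at as a whole because Abca7 and all called genes lie on it. Of its 952 genes tested, 3 were called, against 3 of all 21015 genes. An unadjusted p under 0.05 was found for 63 (6.62%), against 5.88% over all genes. In 5 (0.525%) the labels did not overlap, against 0.262% of all genes. Within 5 Mb of Abca7, 244 genes were tested, 2 were called and 18 (7.38%) had an unadjusted p under 0.05, and the median log2 fold change was 0.01. At 5 to 10 Mb the share was 8.45% of 71 genes, at 10 to 20 Mb 4.62% of 130, at 20 to 40 Mb 10.2% of 176, and at 40 to 80 Mb 4.53% of 331. On the other chromosomes with over 100 genes tested it ranged from 3.88% (X) to 8.21% (chromosome 5). The share of chromosome 10 as a whole lay within that range. Shares by distance rest on fewer genes, and those at 5 to 10 Mb and 20 to 40 Mb lay above it. No gene of another chromosome was called.

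Besides Abca7, Tdg and 1190007I07Rik, 7 genes within 5 Mb of Abca7 belong to the 10 with the smallest p there, and none was called. The zinc finger gene Zfp873 was the 1 of these 7 without overlap, with 3.43 to 4.47 CPM in mice labelled Abca7 and 2.60 to 3.41 CPM in controls (log2 0.26 ± 0.10; adjusted p = 0.711). Sppl2b, an intramembrane protease of the signal peptide peptidase family, had 34.1 ± 2.07 against 31.0 ± 1.30 CPM. Apba3, an adaptor protein that binds the amyloid precursor protein, had 14.2 ± 1.08 against 12.8 ± 0.533 CPM. Cabin1, a calcineurin inhibitor, had 103 ± 3.77 against 96.5 ± 2.93 CPM. Lower means were found for the thioredoxin reductase gene Txnrd1 (51.2 ± 2.34 against 56.3 ± 3.89 CPM), for Dip2a (96.2 ± 5.49 against 103 ± 4.73 CPM) and for Gipc3 (0.334 ± 0.108 against 0.507 ± 0.0698 CPM). Each of these 6 had overlapping libraries and an adjusted p of 0.693 to 0.767.

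**Figure D3:**
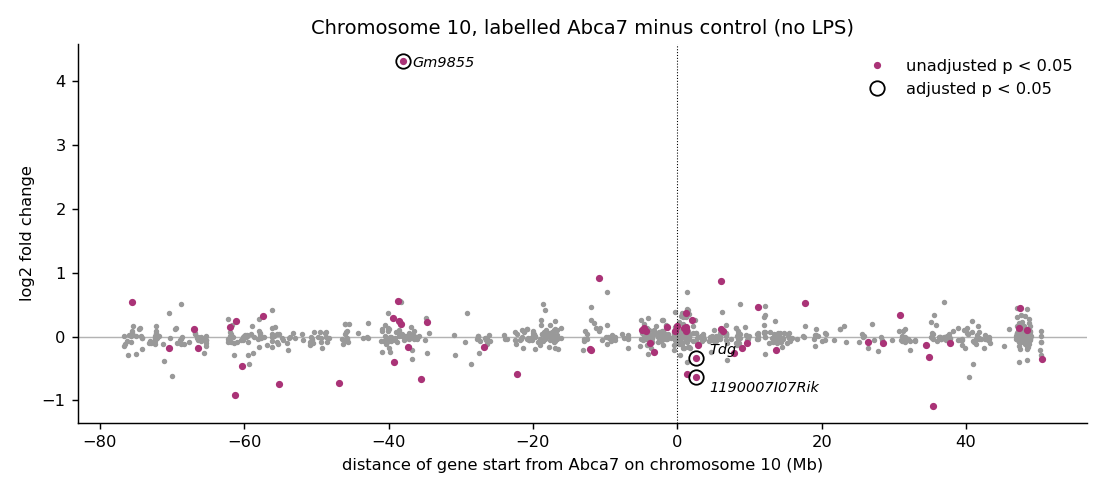
Each point is 1 of the 952 tested genes of chromosome 10, placed by the distance of its start from Abca7 in Mb (horizontal axis) and its log2 fold change without LPS (vertical axis); colour marks an unadjusted p under 0.05 and circles mark the 3 called genes. Tdg and 1190007I07Rik lie 2.63 and 2.62 Mb from Abca7 and Gm9855 lies 37.9 Mb away on the other side.

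The largest fitted fold changes among genes with a mean log2 CPM of at least 1 were not called, because mice of the same label differed. The 5 highest were Ttr, F5, 1500015O10Rik, AA474408 and Kl. Ttr, which encodes the thyroid hormone and retinol carrier transthyretin made by the choroid plexus, had 47.9, 385, 397, 446, 438 and 176 CPM in mice labelled Abca7 and 260, 19.6, 4.92, 15.7, 9.82 and 7.44 CPM in controls. Only control replicate 1 broke the separation of the labels. Labelled Abca7 replicate 1 was the lowest of its label but lay above the other 5 controls. The log2 difference was 2.58 ± 0.84 (adjusted p = 0.675), and 4.79 without control replicate 1 (adjusted p = 0.000416). The latter value describes the other libraries and is no test, since control replicate 1 stood apart in Ttr itself. The coagulation factor gene F5 had 1.40, 7.32, 8.44, 7.04, 6.34 and 4.41 CPM against 5.91, 1.02, 0.850, 0.977, 0.560 and 0.523 CPM, with the same pair of libraries near the other label. Kl, the gene of the ageing-related hormone and co-receptor klotho, had 17.2 ± 7.05 against 5.97 ± 4.58 CPM (log2 1.53 ± 0.38) and 1500015O10Rik had 4.18 ± 1.89 against 1.25 ± 0.983 CPM (log2 1.76 ± 0.41). AA474408 had 13.8 to 80.9 CPM in mice labelled Abca7 and 1.62 to 20.5 CPM in controls.

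At the other end were Omp, Pdgfa, Cmtm8, Eomes and Frmd7. Omp, the olfactory marker protein gene, had 0.391, 0.673, 0.571, 1.30, 0.611 and 0.362 CPM in mice labelled Abca7 and 11.4, 1.18, 1.45, 5.49, 0.855 and 0.634 CPM in controls (log2 -2.41 ± 0.64; adjusted p = 0.567). Eomes, a T-box transcription factor of olfactory bulb projection neurons and of neuronal precursors, was at 8.5 and 6.88 CPM in control replicates 1 and 4 and at 0.197 to 2.19 CPM in the other 10 mice. Frmd7 followed the same pattern, with 8.96 and 7.49 CPM in these controls and 0.391 to 3.17 CPM in the others. In the mice of 55 days alone, which do not include these controls, the log2 differences of Omp, Eomes and Frmd7 were 0.05, 1.59 and 0.92. The fold changes of Pdgfa, the platelet-derived growth factor A gene, and of Cmtm8 rested on 1 library each. Pdgfa was at 707 CPM in control replicate 3 and at 24 to 31 CPM in the other 11 mice, and Cmtm8 was at 20.8 CPM in control replicate 5 and at 0.368 to 1.21 CPM elsewhere.

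**Figure D4:**
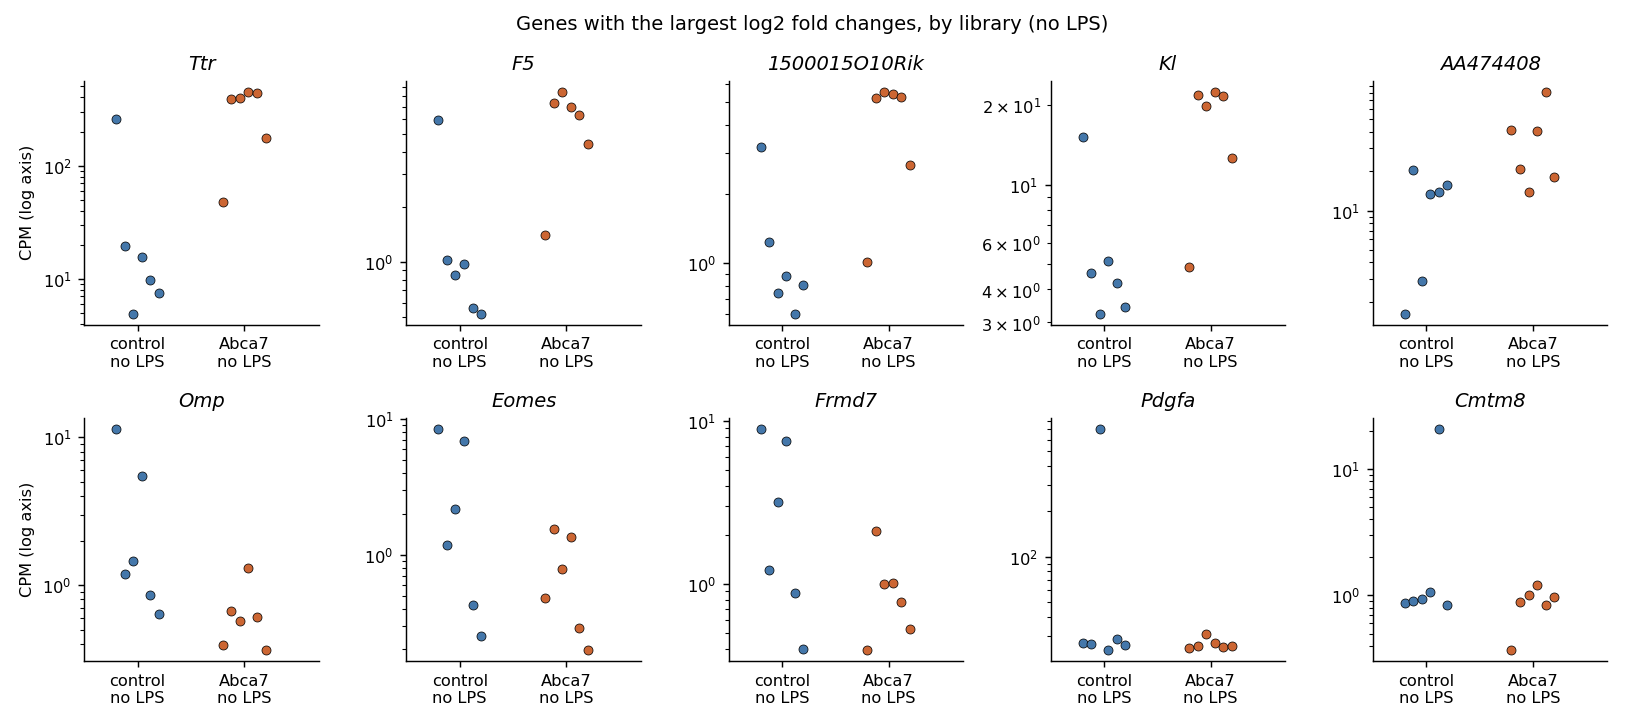
CPM (log axes) of the 5 genes with the highest and the 5 with the lowest fitted fold change among genes with a mean log2 CPM of at least 1, with 1 point per mouse without LPS. Control replicate 1, the leftmost control, lies near the mice labelled Abca7 for Ttr, F5, 1500015O10Rik and Kl, and Pdgfa and Cmtm8 each have a single high control.

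Gene lists for lipid biology, trafficking, immunity, amyloid and the cell types of the brain were read next. None of the 37 lists had a member past the threshold, so each is described by how many members had an unadjusted p under 0.05 and by its median log2 fold change, against 3.33% of all genes higher, 2.55% lower and a median of 0. A higher mean with the Abca7 label was found for 49.8% of all genes. These shares over all genes are from the 12 libraries and were not computed for fits without 1 library. List counts given below for such fits thus have no background to be read against. Members did pass once 1 of the 2 libraries that stand apart was left out. Without control replicate 1 these were Abca4 and 8 of the 10 choroid plexus markers (Ttr, Slc4a5, Kl, Folr1, Clic6, Kcnj13, Kcne2 and Enpp2; edgeR adjusted p = 0.000416 to 0.0388). Without labelled Abca7 replicate 1 they were Abca4, Lbp, Clic6 and Kcnj13 (each 0.0488). All were higher with the Abca7 label. Over all 21015 genes, 25 were called without control replicate 1. Both libraries had been seen to stand apart in their choroid plexus sums. Leaving them out describes the other libraries and is no test of those markers.

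Among transporters related to Abca7, 3 of the 15 Abca and Abcg genes were at an unadjusted p under 0.05 and higher and 1 lower, Abca5 (-0.09 ± 0.04, named after its value was seen), with a median of 0. Besides Abca7 the higher members were Abca4, known as the retinoid flippase of photoreceptors, and Abca8b. Abca4 ranged from 4.01 to 6.33 CPM (median 5.58) in mice labelled Abca7 and from 2.74 to 4.51 CPM (median 3.06) in controls, with a log2 difference of 0.68 ± 0.14 (edgeR adjusted p = 0.271; DESeq2 adjusted p = 0.00292). The ranges overlapped, and under LPS the difference was -0.18 ± 0.13. Over 15 alternatives other than leaving out each library, the log2 difference of Abca4 without LPS ran from 0.17 to 0.96. Abca8b had 34.5 ± 1.76 against 31.8 ± 2.12 CPM. Of 16 targets of the sterol-sensing receptor LXR and lipid efflux genes, 2 were higher (Mylip and Lpl, by 0.15 ± 0.06 and 0.12 ± 0.05) and none lower, with a median of 0.01. Of 24 genes of cholesterol biosynthesis 21 had a lower mean and 4 were at an unadjusted p under 0.05, all lower, with a median of -0.05. They are Insig1, a regulator of sterol synthesis (-0.16 ± 0.08, named after its value was seen), Hsd17b7 (-0.10 ± 0.05), Fdps, which makes farnesyl diphosphate (-0.11 ± 0.05), and Dhcr7, of the last step to cholesterol (-0.13 ± 0.06). Without labelled Abca7 replicate 1, 18 had a lower mean, and 2 were lower and 1 higher at that level. None was at that level without control replicate 1, where 6 of the 24 had a higher mean and the median was -0.02. Of 26 genes of phospholipid and sphingolipid metabolism, 1 was higher, the choline kinase gene Chkb (0.10 ± 0.05), with a median of 0.01. Chkb shares 49.8% of its 50-base words with overlapping genes, so its count is uncertain.

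Of 28 genes of endocytosis and the early endosome, which carry membrane proteins in from the cell surface, 8 had a higher mean and 1 was lower at an unadjusted p under 0.05, the sorting receptor Sorl1 (-0.12 ± 0.05; 354 ± 17.2 against 386 ± 26.9 CPM), with a median of -0.02. Of 21 Rab GTPases 4 had a higher mean and none had an unadjusted p under 0.05, and log2 differences ran from -0.07 to 0.02. Of 26 lysosomal genes 13 had a higher mean and 1 was lower, Scarb2 (-0.12 ± 0.05), with a median of 0. Of 22 phagocytosis genes 8 had a higher mean and 1 was lower, the integrin Itgav (-0.10 ± 0.04), with a median of -0.01.

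Immune lists were read in the same way. Of 20 proinflammatory cytokine and chemokine genes 11 had enough counts to be tested, and 9, Tnf, Il6 and Ccl2 among them, did not. Of those tested, 9 had a higher mean and 4 were at an unadjusted p under 0.05 and higher, with a median of 0.21. Cxcl10, the interferon-induced T cell attractant, ranged from 0.126 to 2.12 CPM (median 1.14) in mice labelled Abca7 and from 0.230 to 0.801 CPM (median 0.462) in controls. Cxcl1, a neutrophil attractant, ranged from 0.0898 to 1.10 CPM and from 0 to 0.240 CPM, and the cyclooxygenase gene Ptgs2 averaged 16.8 ± 3.22 and 13.5 ± 2.06 CPM. The fourth was the adhesion molecule gene Icam1 (0.45 ± 0.18), named after its value was seen. The labels overlapped for each of the 4. With labelled Abca7 replicate 1 left out, 9 of the 11 had a higher mean, 1 was higher at that level and the median was 0.10. Leaving out control replicate 1 instead gave 9 with a higher mean, 4 higher at that level and a median of 0.25. Choroid plexus markers, whose sums are given above, were also higher in most of the mice labelled Abca7, and their part in these differences was not tested.

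Of 20 genes of CD14 and TLR4 signalling 2 were higher, with a median of 0. Chuk, a kinase of NF-kB activation, differed by 0.10 ± 0.05. Lbp, the LPS-binding protein gene, ranged from 1.22 to 5.12 CPM (median 4) against 1.71 to 2.96 CPM (median 1.85). Of 26 interferon-stimulated genes 20 had a higher mean and 2 were at an unadjusted p under 0.05, the antiviral gene Rsad2 (0.73 ± 0.26) and Ifi27 (0.21 ± 0.08), with a median of 0.11. The summed level of this list was 206 CPM in labelled Abca7 replicate 1, 117 to 141 CPM in the other 5 labelled mice and 123 to 153 CPM in controls. Without that library 8 of the 26 had a higher mean, the median was -0.09 and the difference in Rsad2 was 0.42. Leaving out control replicate 1 instead gave 24 with a higher mean, 4 higher at an unadjusted p under 0.05 and a median of 0.18. Shares over all genes were not computed for these fits. All 13 genes of MHC class I presentation had a higher mean and 2 were at an unadjusted p under 0.05, Nlrc5, the class I transactivator (0.84 ± 0.35; 0.971 to 4.10 against 0.460 to 1.45 CPM), and Tapbp (0.11 ± 0.05), with a median of 0.11. Labelled Abca7 replicate 1 again had the highest sum, 196 CPM, against 133 to 149 CPM in the other 5 labelled mice and 134 to 155 CPM in controls. Without it 6 of the 13 had a higher mean, none had an unadjusted p under 0.05, the median was -0.01 and the difference in Nlrc5 was 0.37. With control replicate 1 left out instead, all 13 had a higher mean, 2 were higher at that level and the median was 0.16. Of 15 complement genes 2 were higher, C4a (0.33 ± 0.11) and the factor B gene Cfb (0.22 ± 0.10), with a median of 0.14. C4a shares 30.6% of its 50-base words, mostly with C4b, and Cfb 73.0% with an overlapping gene, so their counts are uncertain. Of 18 reactive astrocyte genes 3 were higher, Lcn2, Steap4 (0.68 ± 0.21) and Cxcl10, with a median of 0.08. The siderophore-binding protein gene Lcn2 ranged from 0.377 to 1.08 CPM against 0.190 to 0.5 CPM (log2 1.28 ± 0.31; adjusted p = 0.510).

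Of 20 homeostatic microglia genes none had an unadjusted p under 0.05 and 5 had a higher mean, with a median of -0.02 and sums of 459 to 496 CPM against 471 to 487 CPM. The purinergic receptor gene P2ry12 had 23.5 ± 1.77 against 24.7 ± 2.59 CPM. Of 20 genes of disease-associated microglia, 19 were tested (all but Cst7), 1 was higher, Lpl, and 1 lower, the osteopontin gene Spp1 (8.01 ± 0.777 against 9.94 ± 2.15 CPM), with a median of 0. Spp1 was also lower under LPS, by 0.45 ± 0.10 (unadjusted p = 0.000395, not called by edgeR; DESeq2 -0.46, adjusted p = 0.0139).

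Of 27 mouse counterparts of Alzheimer risk genes 2 were higher, Abca7 and Ace, which encodes angiotensin-converting enzyme (20.3 ± 2.94 against 16.4 ± 2.77 CPM), and 1 was lower, Sorl1, with a median of -0.02. Of 16 genes of amyloid precursor processing 1 was lower, the endothelin-converting enzyme gene Ece1 (-0.14 ± 0.06), with a median of -0.01. Of 19 endoplasmic reticulum stress genes 1 was lower, the kinase gene Eif2ak3 (-0.08 ± 0.04), with a median of 0.01. Of 18 immediate early genes 1 was higher, Npas4, induced by neuronal activity (21.2 ± 6.92 against 15.5 ± 4.23 CPM), with a median of 0.03. Of 15 circadian clock genes 1 was lower, Rora (89.7 to 116 against 103 to 132 CPM), with a median of -0.01.

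Cell-type markers differed most for the choroid plexus, the epithelium that secretes cerebrospinal fluid. All 10 of its markers had a higher mean in mice labelled Abca7 and 8 were at an unadjusted p under 0.05, with a median log2 difference of 1.37. Their summed level was 246, 784, 822, 909, 851 and 484 CPM in mice labelled Abca7 and 624, 231, 208, 210, 209 and 216 CPM in controls. Kcnj13, a potassium channel of this epithelium, ranged from 1.57 to 5.94 CPM (median 4.08) against 1.22 to 3.05 CPM (median 1.32), and Clic6, a chloride channel-like protein, from 5.48 to 17.6 CPM (median 14.4) against 3.63 to 11.9 CPM (median 5.48). Kcnj13 shares 42.1% of its 50-base words with the overlapping gene Gigyf2, so its count is uncertain. The others at this level were Ttr, Kl, Folr1 (1.52 ± 0.46), Slc4a5 (2.24 ± 0.59), Kcne2 (2.13 ± 0.62) and Enpp2 (0.61 ± 0.17), the last also a marker of oligodendrocytes. In the LPS mice Ttr had 251 ± 124 CPM in mice labelled Abca7 and 284 ± 109 CPM in controls. Adjacent ependymal cells, ciliated cells of the ventricle wall, had 8 of 8 markers with a higher mean and 2 at an unadjusted p under 0.05, Rsph1 (0.42 ± 0.15) and Foxj1 (0.26 ± 0.12), with a median of 0.33.

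The main cell classes of the cortex differed less. Of 15 neuronal markers 3 were lower at an unadjusted p under 0.05, Syt1 (-0.09 ± 0.04) and Snap25 (-0.08 ± 0.04), both of the synaptic vesicle fusion machinery, and Gad1, of GABA synthesis (-0.15 ± 0.06), with a median of -0.03. None of 12 astrocyte and 14 endothelial markers had an unadjusted p under 0.05, with medians of 0.02 and 0. Of 12 oligodendrocyte markers 1 was higher, Enpp2, with a median of -0.04, and of 8 precursor markers 1 was higher, Gpr17 (0.11 ± 0.05), with a median of 0.05. Of 10 pericyte and smooth muscle markers 1 was higher, Tagln (0.22 ± 0.08), with a median of 0.04. Of 10 meningeal fibroblast markers 1 was higher, Igf2 (53.9 to 65.7 against 45.9 to 56.8 CPM), with a median of 0.01. Tagln shares 58.3% and Igf2 62.1% of their 50-base words with overlapping genes. None of 5 erythrocyte markers had an unadjusted p under 0.05 (median 0.24). Of 12 markers of neutrophils, monocytes and lymphocytes 2 had enough counts to be tested, with a median of 0.05.

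Markers of other brain regions and of cortical layers were read last. None of 10 striatal markers had an unadjusted p under 0.05 (median 0.06; sums of 887 to 1150 against 837 to 1050 CPM). Of 8 thalamic markers 1 was lower, Rora (given above), with a median of -0.07. Of 10 hippocampal markers 1 was higher, Wfs1 (94.5 to 115 against 85.9 to 99.0 CPM), with a median of -0.05. Of 10 markers of the claustrum and deep cortical layers 1 was lower, Etv1, of layer 5 (49.4 to 55.9 against 54.6 to 67.8 CPM), with a median of -0.04, and of 10 upper layer markers 1 was higher, Otof (40.8 to 51.5 against 30.5 to 45.9 CPM), with a median of 0.

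**Figure D5:**
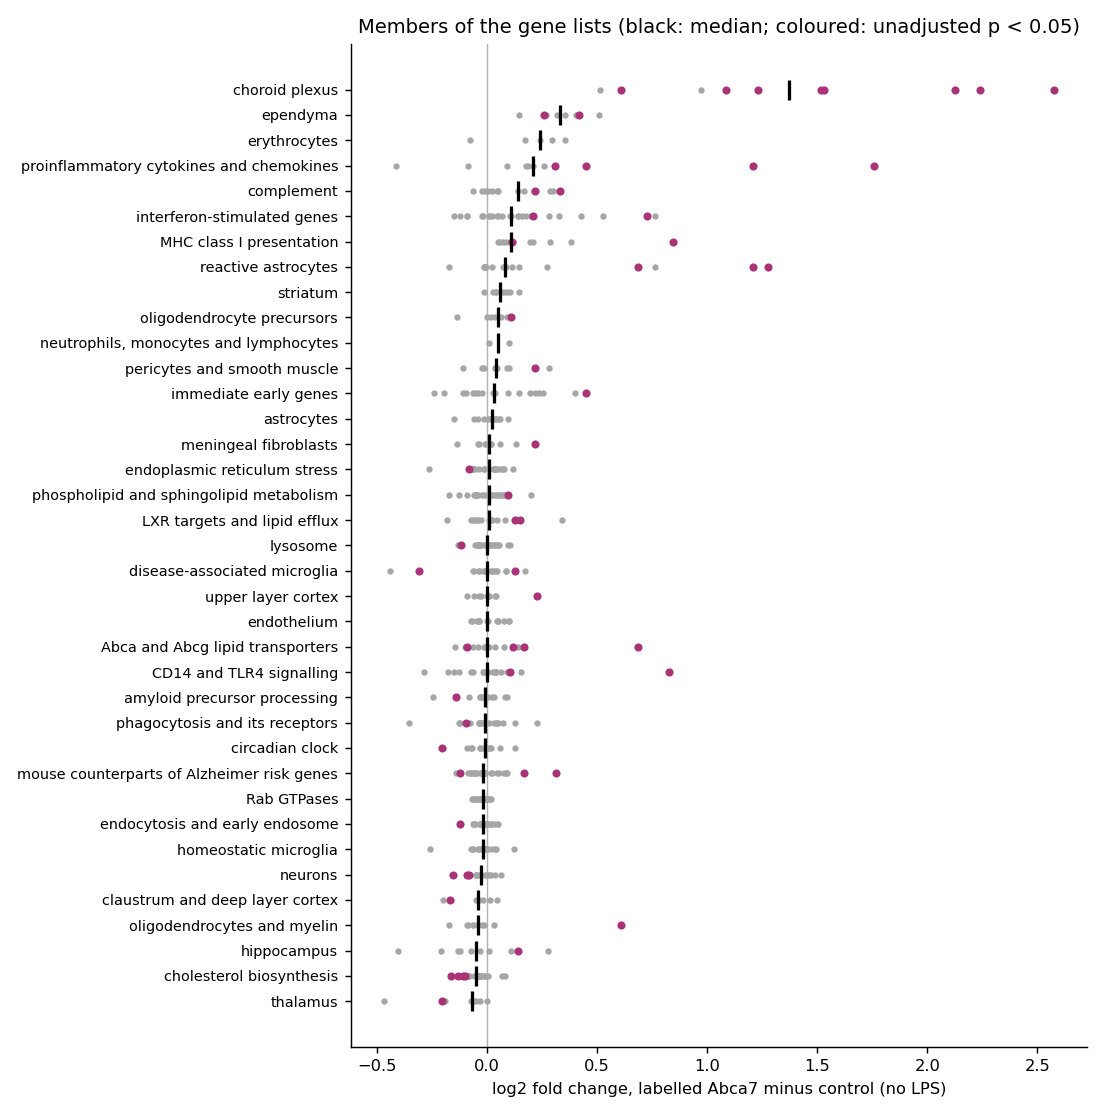
Log2 fold change (labelled Abca7 minus control, no LPS) of every tested member of the 37 gene lists, ordered by list median (black bars); coloured points have an unadjusted p under 0.05. The choroid plexus list, with a median of 1.37, lies apart from the others, whose medians run from -0.07 to 0.33.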

How the data were processed

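The authors deposited raw read counts per gene, whole numbers without normalization, for 24 cortical libraries. Per the series' design text, total RNA was sequenced on an Illumina HiSeq 4000 and counted with MAP-RSeq 2.1.1; alignment used STAR 2.5.2b and mm10, per the submitters' processing notes. The annotation release, the strand setting and the handling of reads with several matches were not stated in the labels. For coordinates, strand and shared sequence GENCODE M21 (mm10) was used, which holds 97.96% of the identifiers. Sequences of Tdg and Gm9855 were aligned with Biopython.

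Genes with at least 10 counts in at least 6 of the 12 unstimulated libraries were fitted with edgeR 4.0.16 (R 4.3.3), with TMM factors, the quasi-likelihood F test and Benjamini-Hochberg adjustment over all 21015 genes, threshold 0.05, two-sided. The LPS libraries were fitted separately, and the interaction on all 24. Standard errors were taken as log2 fold change over the root of F. CPM has no prior count; log2 CPM of single libraries has a prior count of 2. Single values were compared by exact permutation (smallest p 0.00216). Files of replicates were not identical (pairwise r 0.9857 to 0.9938). The test was tested on simulated data. Named genes were Abca7, all called genes, the 5 largest fold changes in each direction with a mean log2 CPM of at least 1, the 3 members of each list with the smallest p, and the 10 genes within 5 Mb of Abca7 with the smallest p. Others named were chosen after their values were seen. The comparison, the lists and the rule were chosen with earlier results of these data known. Alternatives included DESeq2 1.42.0, limma-voom 3.58.1, surrogate variables from sva 3.50.0 and leaving out each library.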

Additional observations from a re-analysis of the deposited data

Results flagged for a closer look

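The highest or lowest library of each group of 6 was compared with the gap that Dixon's test allows, over 88 sets of 6 values (levels of named genes, sums of cell-type markers and library measures). Chance marks about 1 group in 20; here 17 values were marked. Of the 17, 9 belong to genes named for the size of their fitted fold change in the same libraries, so that rate does not apply to them. Of all 17 marked values, 8 belonged to control replicate 1: Ttr at 260 CPM (others 4.92 to 19.6), F5 at 5.91 CPM (0.523 to 1.02), Kl at 15.2 CPM (3.24 to 5.14), 1500015O10Rik at 3.21 CPM (0.605 to 1.24), sums of choroid plexus markers of 624 CPM (208 to 231), of neuronal markers of 8630 CPM (9390 to 9680) and of thalamic markers of 470 CPM (251 to 311), and Tdg at 25.9 CPM (30.4 to 31.6).

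The library labelled control LPS replicate 4 was marked for Gm9855, at 1.98 CPM (others 0.0535 to 0.26), and for 1190007I07Rik, at 3.19 CPM (others 4.24 to 4.76). Both values lie within the range of the LPS mice labelled Abca7.

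Single high values were Pdgfa at 707 CPM in control replicate 3 (others 24 to 28.4) and Cmtm8 at 20.8 CPM in control replicate 5 (others 0.839 to 1.06). Smaller departures were Gm9855 at 0.0354 CPM in control replicate 3, and among mice labelled Abca7 Pdgfa at 31 CPM in replicate 3, Omp at 1.3 CPM in replicate 4, Frmd7 at 2.12 CPM in replicate 2 and Zfp873 at 4.47 CPM in replicate 1. No gene named here passed the test of the interaction with LPS.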

How the results depend on the processing

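No paired analysis was possible because the labels carry no replicate numbers, so nothing pairs mice across labels. With an edgeR fit on DESeq2 size factors, with filterByExpr and without the ribosomal repeat loci, the same number of genes, 3, was called; limma-voom called 2 (1 lower) and no count filter 4 (2 higher, 1 off chromosome 10). Gm9855 was called under every alternative that kept it as a gene of its own, 1190007I07Rik under all but the mice of 55 days, and Tdg was lost under limma-voom (adjusted p = 0.0557), Ttr level as a covariate (0.29), the mice of 55 days (0.0721) and summing with Gm9855 (0.514). The count of called genes moved under other alternatives, given here as all called, higher, lower and off chromosome 10: DESeq2 19, 12, 7 and 15; all 24 libraries in a single fit 7, 3, 4 and 4; age as a number 6, 3, 3 and 2; age as a factor 22, 18, 4 and 18; Ttr level as a covariate 100, 20, 80 and 91, with 9 on chromosome 10; 3 surrogate variables 89, 68, 21 and 82, with 7 on chromosome 10; and the 3 against 2 mice of 55 days 29, 27, 2 and 28, with 1 on chromosome 10. Leaving out 1 library gave 2 to 25 called genes, 1 to 22 higher, 1 to 4 lower, 2 to 4 on chromosome 10 and 0 to 22 off it; the highest counts were without control replicate 1 (25) and labelled Abca7 replicate 1 (16). Chosen after seeing the data, leaving out control replicates 1 and 4, which were highest in Omp, gave 15 called (13 higher, 12 off chromosome 10), leaving out replicate 1 of each label, nearest the other label in Ttr, gave 50 (44 higher, 6 lower, 6 on chromosome 10, 44 off it), and summing Tdg with Gm9855 gave 1 (0 higher, 1 lower, 1 on chromosome 10). The cause of these moves was not tested. Under LPS, DESeq2 called 31 genes, and leaving out LPS replicate 4 labelled Abca7 or control gave 1 called gene each; the control was set aside after its Gm9855 level was seen. Abca7 without LPS kept its direction and was called under none of the alternatives, with log2 differences of 0.145 to 0.212.

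Log2 differences of genes that were not called turned sign as follows, and the cause was not tested. With Ttr level, itself one of the choroid plexus markers, as a covariate: F5 -0.16, 1500015O10Rik -0.034, Kl -0.16, Pdgfa 0.48, Lbp -0.16, Ifi27 -0.048, Cd59a -0.068, P2ry12 0.082, Ace -0.14, Ide 0.12, Dnajb9 0.064, Nr1d2 0.014, Syt1 0.011, Snap25 0.022, Gjb6 -0.016, Enpp2 -0.12, Slc22a6 0.03, Igfbp2 -0.22, Clic6 -0.10, Foxj1 -0.084, Tmem212 -0.03, Spink8 -0.027. In the mice of 55 days: Omp 0.053, Eomes 1.59, Frmd7 0.92, Fcgr3 -0.05, Dock1 0.019, H2-T23 -0.021, Sall1 0.049, Ece1 0.032, Ern1 0.024, Gjb6 -0.025, Olig2 -0.042, Ly6c1 -0.054, Ly6c2 -0.14, Ccr2 -0.20, Tac1 -0.037, Calb2 0.34, Lef1 0.053, Lct 0.51. With age as a factor: Vwf -0.008, Hba-a1 -0.10, Ccr2 -0.34, Lct 0.14. Ccr2, at 0.01 in the 12 libraries, was -0.093 with age as a number, -0.17 with surrogate variables and -0.14 with limma-voom. Without control replicates 1 and 4: Calb2 0.29, Lct 0.54, Cux2 -0.004. Without replicate 1 of each label: Vwf -0.008, Ccr2 -0.45, Calb2 0.14. Leaving out 1 library gave ranges that included a change of sign for Ccr2 (-0.362 to 0.235), Calb2 (-0.792 to 0.057), Lct (-0.937 to 0.0) and Pdgfa (-2.617 to 0.008, the last without its single high control). Genes with few counts limit the precision: Gm9855 had 2 to 8 counts per control library.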

Other observations

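Genes named here were chosen after their values were seen. DESeq2 called 19 genes without LPS, 12 higher and 7 lower, 4 of them on chromosome 10. Besides the 3 genes called by edgeR they include Ccdc108, a gene of motile cilia, with 10.9 against 7.98 CPM and no overlap between labels (log2 0.45, DESeq2 adjusted p = 8.94e-05), and the phospholipase-domain gene Plcxd2, with 122 against 144 CPM and no overlap (-0.24, adjusted p = 0.000175). Lower were also the potassium channel gene Kcnh5 (-0.28), the GABA-A receptor subunit gene Gabrb2 (-0.20) and the phosphodiesterase gene Pde4d (-0.20). Under LPS DESeq2 also called Gabrb2 (-0.18) and Pde4d (-0.17), but not Kcnh5, Ccdc108, Plcxd2, Capn11 or A930033H14Rik. The last is the fourth gene on chromosome 10 called without LPS, and was higher there (log2 0.91, DESeq2 adjusted p = 0.00195). The protease gene Capn11 was higher (2.43, adjusted p = 0.0393), with 1.66 against 0.306 CPM. Ccdc108 and Plcxd2 were also called by edgeR when all 24 libraries entered a single fit (adjusted p = 0.0173 for both).

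In 5 genes a single library lay more than 5 times above the next of the 12. Besides Pdgfa and Cmtm8 these were Nsmce2 at 174 CPM in labelled Abca7 replicate 4 (next 20.5), Vps8 at 434 CPM in labelled Abca7 replicate 5 (next 54.2) and Gbp4 at 17.5 CPM in labelled Abca7 replicate 1 (next 2.41).

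The third principal component of log2 CPM, with 11.3% of the variance, had scores of 4.29 to 28.6 in mice labelled Abca7 and of -19.3 to -3 in controls (exact permutation p = 0.00216, the smallest possible; 0.0130 adjusted over 6 components). Gm9855, Ttr, Frmd7, Omp and Eomes are among its 20 genes with the largest loadings. The first and second components, with 18.4% and 13%, did not separate the labels (exact permutation p = 0.807 and 0.539).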
